A study of Mus musculus with 8 samples.

Results

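The genes described here are 5 STAT transcription factors (Stat3, Stat4, Stat5a, Stat5b and Stat6) and 4 members of the SOCS family (Socs1, Socs2, Socs3 and Cish), 9 of the 27179 genes in the deposited expression table, taken by gene symbol. Cytokine receptors of T cells carry Janus kinases, which phosphorylate STAT proteins when a cytokine binds. Phosphorylated STATs pair, enter the nucleus and switch on target genes, and the SOCS genes are among those targets: their proteins bind receptors or kinases and damp the same signal, a negative feedback. In CD4+ T cells STAT4 carries the IL-12 signal, STAT6 the IL-4 signal, STAT3 the signals of IL-6 and IL-21, and STAT5A and STAT5B those of IL-2 and IL-7.

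The study asked how prenatal cadmium (Cd) alters T cells of the offspring, and RNA was sequenced from splenic CD4+ T cells that were enriched by negative selection and then sorted. The labels name CD4+ T cells only, while a legend of the study names CD4+ CD25- conventional T cells, so it is not certain whether cells with CD25, the product of Il2ra, were removed before culture. There were 8 libraries in 4 groups of 2, numbered replicates 6 and 7 in each group: unstimulated (0 hours) and stimulated (16 hours with beads carrying anti-CD3 and anti-CD28) cells from control offspring, whose parents drank unspiked water, and the same from Cd offspring, whose parents drank water with 10 ppm CdCl2 around mating and, for the mothers, up to birth. All mice were of strain C.Cg-Foxp3tm2Tch/J, aged 8 weeks, so that every group carried the Foxp3 reporter allele of that strain. The study counted each litter as an independent exposure, but neither labels nor methods tie these libraries to litters or animals, and the p-values measure the spread between these libraries, which may in part be technical.

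Levels are given as RPKM, a read count divided by the length of the transcript and the size of the library, so that genes can be compared with each other. Each library held 15542732 to 25486791 reads on genes, and a single value of a STAT or SOCS gene rested on 19 to 9389 reads. The labelled cell type was checked with marker genes. Cd3e and Cd4 were high in every library, at 306 RPKM or more and 212 RPKM or more, and the B cell gene Ms4a1, the granulocyte gene S100a8 and the globin gene Hba-a1 were at 0 in all 8 libraries. Other markers of these and neighbouring cell types were not at 0. The B cell gene Cd79a lay between 2.87 and 4.73 RPKM (62 to 160 reads) and the erythroid gene Alas2 between 0.365 and 1.72 RPKM (13 to 66 reads). Of the CD8 T cell genes, Cd8b1 was at 9.402 to 11.7 RPKM and Cd8a at 0.0581 to 0.160 RPKM. Summed, the 5 T cell genes (Cd3e, Cd3g, Cd4, Cd5 and Lck) were at 1710 to 1823 RPKM in unstimulated and 1143 to 1197 RPKM in stimulated libraries. The summed level of the 2 NK cell genes (Klrb1c and Ncr1) was 3.15 to 4.35 RPKM in the unstimulated libraries and 0.147 to 0.293 RPKM in the stimulated ones, nearly all of it Klrb1c, and Ncr1 was at 0 in 7 of the 8 libraries. The summed level of the 5 myeloid genes was 6.23 to 7.80 RPKM in unstimulated and 3.16 to 4.31 RPKM in stimulated libraries. Foxp3, the factor of regulatory T cells, lay between 4.48 and 5.08 RPKM in unstimulated and between 5.98 and 7.69 RPKM in stimulated libraries. Ikzf2, another gene of regulatory T cells, overlapped between the states, at 1.84 to 3.21 RPKM and 2.53 to 3.75 RPKM.

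Cish and Socs3, the SOCS genes that moved in opposite directions on stimulation, are shown with the start of their annotated transcripts, since both hold the spaced palindrome that STAT dimers bind, TTCNNNGAA. The windows run from 250 bases before to 50 bases after a RefSeq transcript start (GRCm38.p6), 5′ to 3′ on the strand of the gene, with the matches in capitals. The Cish window is chr9:107296409-107296708 on the plus strand and the Socs3 window chr11:117969317-117969616 on the minus strand. The Socs3 gene is annotated at chr11:117966079-117970336, so its window lies inside the gene, and the 5′ end of the gene was not scanned.
Cish: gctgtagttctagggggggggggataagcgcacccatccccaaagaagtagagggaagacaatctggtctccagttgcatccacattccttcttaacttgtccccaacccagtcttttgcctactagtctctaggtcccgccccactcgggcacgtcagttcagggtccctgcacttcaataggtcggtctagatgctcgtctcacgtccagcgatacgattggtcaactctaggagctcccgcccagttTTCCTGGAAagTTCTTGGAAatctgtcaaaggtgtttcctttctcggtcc
Socs3: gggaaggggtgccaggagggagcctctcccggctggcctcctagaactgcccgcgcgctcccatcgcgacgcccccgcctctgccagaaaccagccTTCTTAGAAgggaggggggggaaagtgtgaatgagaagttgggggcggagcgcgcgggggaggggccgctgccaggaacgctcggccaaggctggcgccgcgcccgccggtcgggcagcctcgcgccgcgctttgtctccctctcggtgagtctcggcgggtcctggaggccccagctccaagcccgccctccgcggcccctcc
The Cish window held 2 matches, at bases 1 to 9 and 12 to 20 of the transcript, and the Socs3 window held 1, from base -154 to base -146 counted back from the start. Of the 32851 promoter windows of the RefSeq table, 8.30% held at least 1 match and 0.457% held 2 or more, counted without regard to strand because the motif reads the same on both strands. Among the 11563 windows of genes tested here, the shares were 6.96% and 0.432%. None of the other windows of these genes, 9 windows of 6 genes, held a match, and no window of the 8 genes held the form with 4 bases between the arms, TTCNNNNGAA, which 6.95% of all windows held. Socs2 has no window in the table. The windows of Stat5a and of Stat5b lie inside their genes, so the annotated 5′ ends of Stat5a and Stat5b were not scanned either. A match describes the letters in this window only, and neither factor binding nor activity was measured.

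Before stimulation the STAT genes were the more abundant set. In control unstimulated cells the order of mean levels was Stat6 (67.3 ± 1.70 RPKM, SD, n = 2), Stat3 (60.7 ± 1.94), Stat5b (58.4 ± 2.17), Stat4 (46.8 ± 3.02), Stat5a (24.7 ± 0.447), Socs3 (20.5 ± 0.721), Socs1 (18.2 ± 1.61), Cish (9.26 ± 0.110) and Socs2 (0.597 ± 0.234). Only the libraries of Stat3 and Stat5b overlapped between neighbours in that order. The order of the means was the same in Cd unstimulated cells, where the libraries of Socs3 and Socs1 overlapped and those of Stat3 and Stat5b did not. After stimulation Cish stood first, with a mean and SD over 2 libraries of 109 ± 4.57 RPKM in control offspring and 96.6 ± 6.22 RPKM in Cd offspring, although in the latter its libraries overlapped those of Stat6. Stat5a moved from the fifth to the third place and Socs3 from the sixth to the eighth in both exposures.

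**Figure D1:**
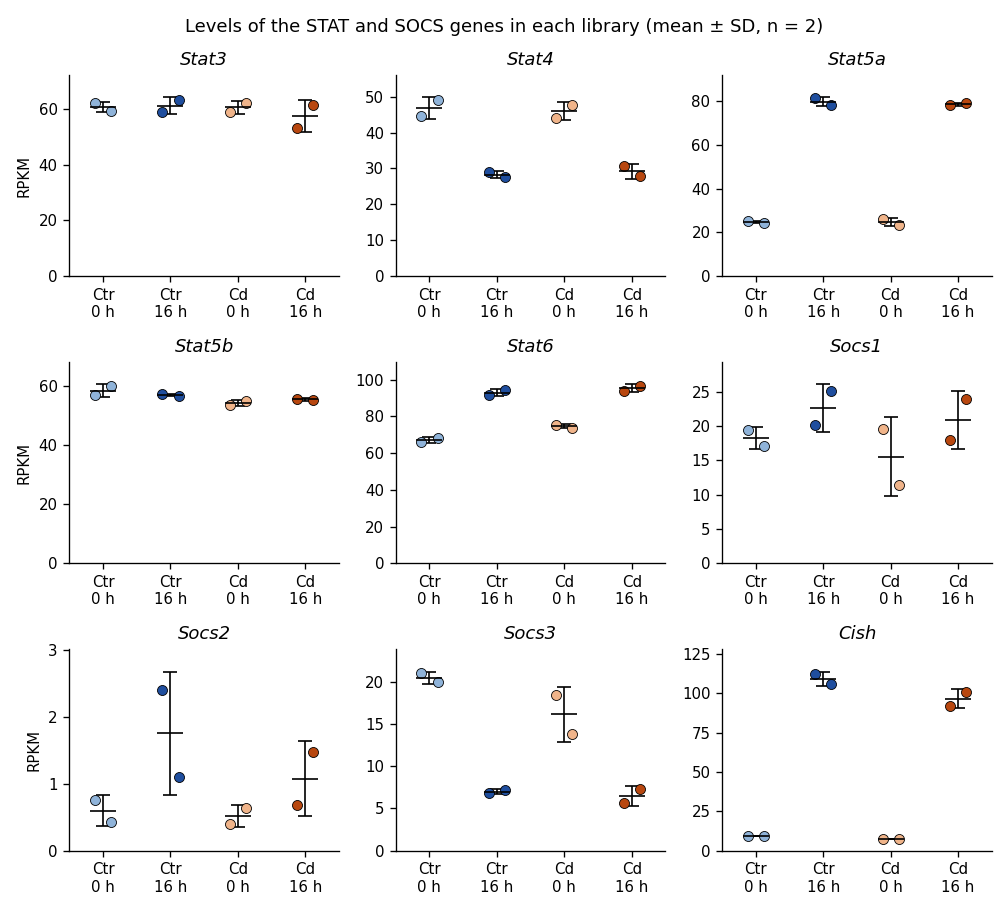
Level of each gene in RPKM (linear axes from 0, scaled per gene) in the 8 libraries; points are libraries (replicate 6 left, replicate 7 right), horizontal bars the mean and vertical bars the SD of 2 libraries. Stimulated libraries stand far above the unstimulated ones for Stat5a and Cish and far below them for Socs3, in control (Ctr, blue) and Cd (orange) offspring alike in direction.

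On stimulation 3 of the 9 genes passed the threshold in each exposure. Cish, which encodes the CIS protein, a feedback inhibitor induced by IL-2 and STAT5, rose in both exposures, as did Stat5a, while Socs3, an inhibitor of receptors that signal through gp130, fell in both. A gene was called when the adjusted p of limma (Benjamini-Hochberg over the 12605 genes tested) was under 0.01 and the change on log2(RPKM + 0.1) more than 2-fold. The study took the same adjusted p and fold for lncRNAs, with edgeR and with a minimum level that was not applied here. In control offspring 3 of the 9 genes were called, 2 higher and 1 lower, where 18.7% of all genes tested were called, 11.5% higher and 7.17% lower. In Cd offspring the called genes were again Cish, Stat5a and Socs3, 3 of 9, against 18.6% of all genes tested, 11.4% higher and 7.24% lower. Over the 9 genes the log2 fold change had a median of 0.30 in control and 0.35 in Cd offspring, beside 0.07 and 0.05 over all genes tested. In RNA from a cell population, a change in the number of cells of a type and a change in RNA per cell cannot be told apart.

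Cish was at 9.19 and 9.34 RPKM in the control unstimulated replicates 6 and 7 and at 112.5 and 106 RPKM in the stimulated ones. In cells of Cd offspring it was at 7.58 and 7.23 RPKM before and at 92.2 and 101 RPKM after stimulation. All 4 stimulated libraries lay far above all 4 unstimulated libraries. The rise was 11.7-fold in control offspring (log2 fold change 3.55, SE 0.063, adjusted p = 8.94e-08 from limma), rank 61 from the highest of the 12605 genes. In Cd offspring it was 12.9-fold (log2 fold change 3.69, SE 0.063, adjusted p = 1.03e-07 from limma), rank 56. The gene spans chr9:107296659-107302784.

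Stat5a, which transmits the IL-2 signal, was at 25.01 and 24.4 RPKM in control unstimulated cells and at 81.1 and 78.3 RPKM in control stimulated cells. Cd offspring had it at 25.9 and 23.3 RPKM and then at 77.9 and 79.0 RPKM. The libraries of the 2 states did not come near each other in either exposure. Its log2 fold change was 1.69 (SE 0.059, adjusted p = 6.41e-07 from limma) in control and 1.67 (SE 0.059, adjusted p = 7.41e-07) in Cd offspring, a rise of 3.22-fold and 3.18-fold. Stat5b, its close paralog and its neighbour on the chromosome, was at 56.8 and 59.9 RPKM in control unstimulated and at 57.2 and 56.6 RPKM in control stimulated cells. In Cd offspring the values were 53.6 and 55.0 RPKM and then 55.7 and 55.2 RPKM. Stat5b thus stayed within a band of 53.6 to 59.9 RPKM, with a log2 fold change of -0.04 (95% interval -0.14 to 0.07, adjusted p = 0.524 from limma) in control and 0.03 (95% interval -0.08 to 0.14, adjusted p = 0.591) in Cd offspring. The value of Stat5b was positive without the control unstimulated replicate 7 (0.0024) and negative in Cd offspring under median-of-ratios scaling (-0.017) and quantile normalization (-0.13). Over the alternatives its control value went as low as -0.18. Its adjusted p in control offspring was lowest under quantile normalization (0.0168 from limma).

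Stat5b, Stat5a and Stat3 lie side by side on chromosome 11 (GRCm38.p6), at chr11:100780731-100859004, chr11:100859351-100885169 and chr11:100886806-100939594. The gaps between them are 347 and 1637 bases. The STAT5 genes also share sequence: of the 150-base windows of their GENCODE transcripts, 4.68% of those of Stat5a and 3.46% of those of Stat5b were identical to a window of the other, and no window was shared between any other pair of the 9 genes. How reads that align to several places were counted is not given in the sources used here. The ratio of Stat5a to Stat5b in RPKM was 0.407 to 0.483 in the 4 unstimulated libraries and 1.38 to 1.43 in the 4 stimulated ones. The share of Stat5a in the summed RPKM of the pair accordingly went from 28.9% to 32.6% before to 58.0% to 58.9% after stimulation, a change in which gene of the pair was the more abundant that every library showed.

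Stat3, the third gene of that cluster, was at 62.1 and 59.4 RPKM in control unstimulated and 59.1 and 63.4 RPKM in control stimulated cells. In Cd offspring it was at 59.0 and 62.2 RPKM and then at 53.4 and 61.5 RPKM. The libraries of the 2 states overlapped in both exposures. Its log2 fold change was 0.01 (95% interval -0.17 to 0.19, adjusted p = 0.905 from limma) in control and -0.08 (95% interval -0.26 to 0.10, adjusted p = 0.373) in Cd offspring. The control value was negative under median-of-ratios scaling (-0.065) and quantile normalization (-0.12), and the Cd value was positive without the Cd stimulated replicate 6 (0.02). Over the alternatives the Cd value went as low as -0.23. Its adjusted p was lowest under quantile normalization (0.0338 from limma).

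Stat4 and Stat6, which carry the signals that direct Th1 and Th2 cells, had differences of opposite sign that passed the adjusted p but not the 2-fold threshold. Stat4 was at 44.7 and 49.0 RPKM in control unstimulated and 29.0 and 27.5 RPKM in control stimulated cells, and at 44.1 and 47.7 RPKM and then 30.6 and 27.8 RPKM in Cd offspring. Its stimulated libraries all lay under its unstimulated ones, with a log2 fold change of -0.73 (SE 0.074, adjusted p = 8.64e-05 from limma) in control and -0.65 (SE 0.074, adjusted p = 0.000155) in Cd offspring. Stat6 was at 66.1 and 68.5 RPKM in control unstimulated and 91.6 and 94.4 RPKM in control stimulated cells, and at 75.5 and 73.8 RPKM and then 93.8 and 96.8 RPKM in Cd offspring. Here the stimulated libraries lay above the unstimulated ones, with a log2 fold change of 0.47 (SE 0.046, adjusted p = 6.68e-05 from limma) in control and 0.35 (SE 0.046, adjusted p = 0.000317) in Cd offspring. The ratio of Stat6 to Stat4 in RPKM was 1.40 to 1.71 in unstimulated and 3.07 to 3.49 in stimulated libraries, 2.15-fold higher on average. Stat4 (chr1:51987106-52107189) and Stat6 (chr10:127642955-127660987) each overlap 2 other annotated genes, Gm3940 and Gm31812, and Gm30989 and Nab2. Whether reads were counted by strand is not given in the sources used here.

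Socs3 was the mirror of Cish in direction. It was at 21.0 and 19.96 RPKM in control unstimulated cells and at 6.76 and 7.21 RPKM in control stimulated cells. Cd offspring had it at 18.4 and 13.8 RPKM and then at 5.63 and 7.27 RPKM. The stimulated libraries lay under the unstimulated ones without overlap, and the Cd unstimulated replicate 7 was the lowest of the unstimulated libraries. Its level was 2.90-fold lower after stimulation in control offspring (log2 fold change -1.54, SE 0.157, adjusted p = 8.46e-05 from limma) and 2.47-fold lower in Cd offspring (log2 fold change -1.31, SE 0.157, adjusted p = 0.000208). The summed NK cell and myeloid genes given above were also lower in the stimulated libraries, at lower levels than Socs3, and their part in the differences of Socs3 and Stat4 was not tested. The summed T cell genes were lower in the stimulated libraries as well. Cish over Socs3 was 0.412 to 0.522 in unstimulated and 13.9 to 16.6 in stimulated libraries, so that the order of these inhibitors turned over in each exposure.

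**Figure D2:**
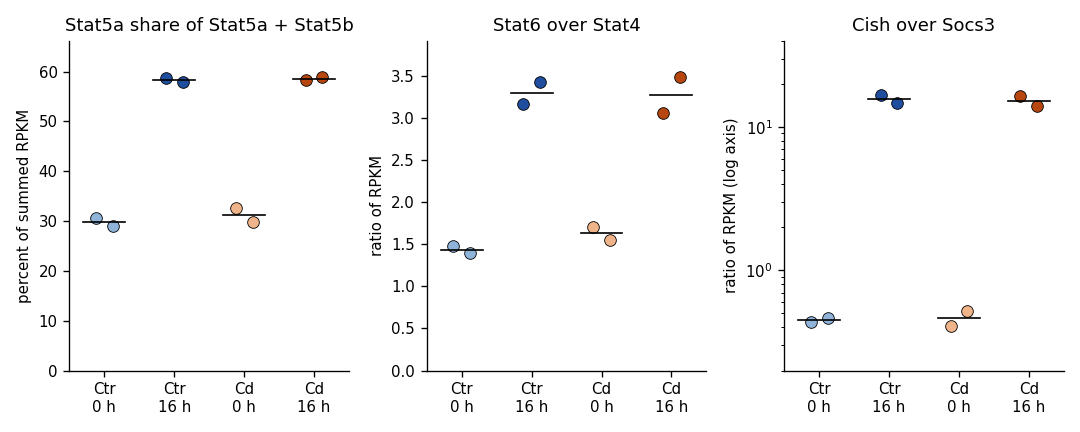
Stat5a as percent of the summed RPKM of Stat5a and Stat5b (left), RPKM of Stat6 over Stat4 (middle) and of Cish over Socs3 (right, log axis) in each of the 8 libraries, with the mean of each group as a line (geometric mean on the right). The 4 stimulated (16 h) libraries lie above the 4 unstimulated (0 h) ones in all panels.

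Socs1 and Socs2 were not called. Socs1, an inhibitor of Janus kinases downstream of interferon gamma and IL-2, was at 19.4 and 17.1 RPKM in control unstimulated and 20.1 and 25.03 RPKM in control stimulated cells. In Cd offspring it was at 19.5 and 11.4 RPKM and then at 17.9 and 23.9 RPKM, where the libraries overlapped. The spread between replicates was of the size of the difference, and the log2 fold change was 0.30 (95% interval -0.29 to 0.89, adjusted p = 0.322 from limma) in control and 0.47 (95% interval -0.12 to 1.05, adjusted p = 0.138) in Cd offspring. Single libraries moved these values. In Cd offspring the log2 fold change was 0.85 without the unstimulated replicate 6 (adjusted p = 0.0097 from limma, under 2-fold) and 0.080 without the unstimulated replicate 7. In control offspring it was 0.46 without the stimulated replicate 6 and 0.15 without the stimulated replicate 7.

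Socs2, an inhibitor best known from growth hormone signalling, was the lowest of the 9 genes in every group. It was at 0.763 and 0.432 RPKM (37 and 19 reads) in control unstimulated and 2.41 and 1.11 RPKM (101 and 58 reads) in control stimulated cells. In Cd offspring it was at 0.401 and 0.632 RPKM (21 and 35 reads) and then at 0.674 and 1.47 RPKM (40 and 101 reads). Each stimulated library lay above both unstimulated libraries of its exposure, but the replicates of a group differed by more than their counting error would allow in stimulated cells, where the 95% Poisson intervals were 1.96 to 2.93 and 0.839 to 1.43 RPKM in control offspring. The log2 fold change was 1.36 (SE 0.484, adjusted p = 0.0395 from limma) in control and 0.86 (SE 0.484, adjusted p = 0.151) in Cd offspring, neither past the threshold of 0.01. In control offspring it was 0.83 without the stimulated replicate 6 and 1.89 without the stimulated replicate 7, and in Cd offspring 1.37 without the stimulated replicate 6 and 0.36 without the stimulated replicate 7. With a replicate block on exposure and number, Socs2 was called in control offspring (log2 fold change 1.36, adjusted p = 0.00503 from limma).

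**Figure D3:**
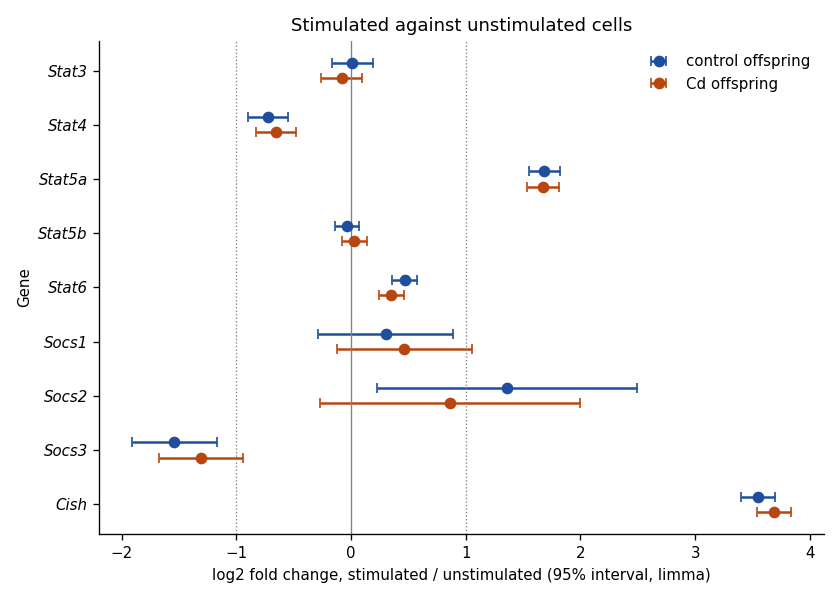
Log2 fold change of each gene between stimulated and unstimulated cells on log2(RPKM + 0.1), in control (blue) and Cd (orange) offspring; bars are 95% intervals from limma and dotted lines mark 2-fold. Stat5a, Socs3 and Cish lie past the 2-fold lines in both exposures. Socs2, whose interval is the widest, lies past the line in control offspring only and was not called.

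Summed over the family, the 5 STAT genes held 254.7 to 262 RPKM in unstimulated and 311 to 320 RPKM in stimulated libraries. The 4 SOCS genes held 33.1 to 50.3 RPKM in unstimulated and 116 to 142 RPKM in stimulated libraries. Cish alone made up 16.5% to 21.8% of the SOCS sum before and 75.6% to 79.3% after stimulation. At an adjusted p under 0.05 with no fold threshold, 6 of the 9 genes passed in control offspring and 5 in Cd offspring, against 64.8% and 65.9% of all genes tested, a share near that of all genes. The libraries of the 2 states did not overlap for 7 of the 9 genes in each exposure, against 83.1% of all genes in each.

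The other genes of the pathway were taken from lists of Janus kinases, receptors, cytokines, other inhibitors and known STAT-responsive genes. Of the 4 Janus kinases 2 had values above 0 and 2 below 0 in each exposure. In control offspring 1 of the 4 was called, 25% beside 18.7% of all genes tested, and in Cd offspring none was. The 1 called in control offspring was Jak2, which serves interferon gamma and IL-12 receptors and was higher (log2 fold change 1.07, SE 0.063, adjusted p = 5.20e-06 from limma). It was just past the 2-fold line there and at 0.99 in Cd offspring (difference in response -0.08, adjusted p = 0.744 from limma). Under median-of-ratios scaling it was at 0.997 and under quantile normalization at 0.94 in control offspring, and no longer called. Jak1, named after its values were seen, was lower after stimulation but under 2-fold in control offspring (log2 fold change -0.69, adjusted p = 1.91e-05 from limma). It went from 252 and 251 RPKM to 158 and 154 RPKM there, and from 248 and 260 RPKM to 171 and 159 RPKM in Cd offspring. None of Socs4 to Socs7 and none of the 8 PIAS proteins and phosphatases was called in either exposure. The median of the Janus kinases was 0.06 in control and 0.03 in Cd offspring, that of Socs4 to Socs7 0.59 and 0.38, and that of the PIAS proteins and phosphatases 0.04 and 0.08.

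Of 21 receptor chains listed, 18 were tested, and 4 were called, all higher, in each exposure. This was 22.2% of the 18, near the 18.7% and 18.6% of all genes tested, and the median of the 18 was -0.49 in control and -0.48 in Cd offspring, under that of all genes. Il2ra, the high-affinity chain of the IL-2 receptor, rose from 1.97 and 1.80 RPKM to 117 and 97.6 RPKM in control offspring and from 2.19 and 2.001 RPKM to 94.0 and 101 RPKM in Cd offspring. The log2 fold changes were 5.76 and 5.47 for Il2ra, 1.74 and 1.91 for Il2rb, the signalling chain shared by the receptors of IL-2 and IL-15, and 2.20 and 1.43 for Il12rb1, a chain of the IL-12 receptor, in control and Cd offspring. The remaining called chain was Il15ra, named after its values were seen, with 1.62 and 1.16, the latter falling to 0.99 with a pseudocount of 1.

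Of 17 cytokines listed, 5 were tested, of which 2 were called higher and 1 lower in both exposures, 60% of a list of 5 beside 18.7% and 18.6% of all genes tested. Il2, the main growth factor of activated T cells, was at 0.703 and 0.517 RPKM in control unstimulated and 53.0 and 50.2 RPKM in control stimulated cells (log2 fold change 6.20), and its log2 fold change in Cd offspring was 6.87. Lif, a cytokine that signals through gp130, had log2 fold changes of 5.47 and 5.22, with 13 to 19 reads in the unstimulated libraries. With a pseudocount of 1 they were 3.65 and 3.29. Ifng, the signature cytokine of Th1 cells, fell, with -1.44 in control and -1.87 in Cd offspring (adjusted p = 0.00195 and 0.000498 from limma). The control call was lost without the unstimulated replicate 6 (-1.32), the stimulated replicate 6 (-1.42) or the stimulated replicate 7 (-1.47). The fall of the NK cell genes described above went with it, and its part was not tested. The median of the 5 cytokines was 1.09 in control and 0.77 in Cd offspring. A gene was tested at a mean of at least 0.5 RPKM over the 8 libraries. Lif lay under 0.5 RPKM in all unstimulated libraries and Il2 in those of Cd offspring, so both were tested because of their stimulated libraries. The 60% and the median were thus in part set by that rule.

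Of 14 genes known to respond to STAT factors, all tested, 5 rose and 2 fell in control offspring, and 5 rose and 1 fell in Cd offspring. These were 50% and 42.9% of the list, beside 18.7% and 18.6% of all genes tested. The list, like the others, was chosen with earlier results of these data known, so its share called is no independent test. Bcl2l1, which encodes the survival protein BCL-XL, rose from 7.74 and 6.88 RPKM to 125.5 and 121 RPKM in control offspring (log2 fold change 4.06, and 4.13 in Cd offspring). Myc had log2 fold changes of 2.49 and 2.39 and Pim2, a survival kinase, 1.90 and 1.82. The others, named after their values were seen, were Ccnd2 (1.41 and 1.10), a D-type cyclin, and Bcl3 (1.03 and 1.13), which both rose, Il18r1 (-1.61 and -1.53), which fell in both exposures, and Bcl2 (-1.13 and -0.91), which was called in control offspring and not in Cd offspring (difference in response 0.22, adjusted p = 0.39 from limma). The call of Bcl3 in control offspring was lost under 5 of 15 alternatives, among them the fits without the unstimulated replicate 7 (0.96) and without the stimulated replicate 7 (0.91). The median of the 14 was 0.34 in control and 0.08 in Cd offspring, beside 0.07 and 0.05 over all genes.

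**Figure D4:**
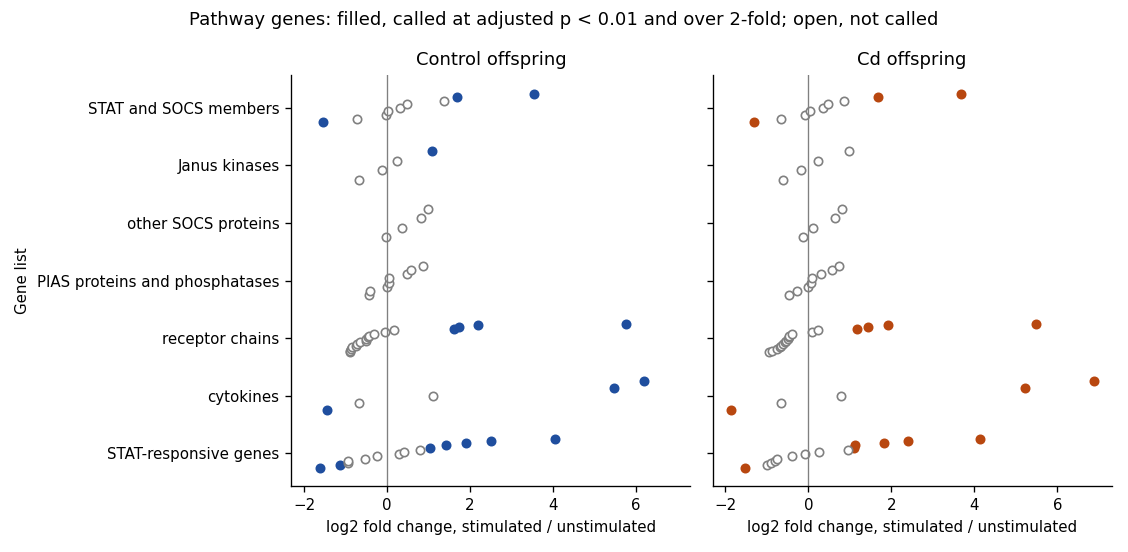
Log2 fold change between stimulated and unstimulated cells for each tested gene of the pathway lists, in control (left) and Cd (right) offspring; filled points were called (adjusted p under 0.01 and more than 2-fold, limma), open points were not, and the vertical spread within a list only separates the points. Called genes lie at both ends of the cytokines, and the receptor chains hold a few high points beside many under 0.

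The question of prenatal exposure was put in unstimulated and in stimulated cells separately, at an adjusted p under 0.05 in limma. No STAT or SOCS gene was called in either state. In unstimulated cells 0 of the 9 were called where 0.896% of all genes tested were, and 2 of the 9 (Stat6 and Cish) had an unadjusted p under 0.05, against 13.9% of all genes. In stimulated cells 0 of 9 were called where 0% of all genes tested were, and 1 of 9 (Cish) had an unadjusted p under 0.05, against 3.28% of all genes. With limma voom on the reads recovered from the table the count of called STAT and SOCS genes was also 0 in both states.

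Cish had the lowest p of the 9 in unstimulated cells. Both Cd unstimulated libraries (7.58 and 7.23 RPKM) lay under both control libraries (9.19 and 9.34 RPKM), 1.25-fold lower on average. The log2 fold change was -0.32 (SE 0.063, 95% interval -0.47 to -0.17, adjusted p = 0.0893 from limma). That SE pools the spread of all 8 libraries. The counting error of a Cish value was 5.29% to 5.61% in unstimulated and 1.34% to 1.63% in stimulated libraries. The interval may thus be too narrow for unstimulated cells. Over 14 alternative settings the adjusted p ranged from 0.0804 to 0.382, highest with only the libraries compared. After stimulation the Cd libraries (92.2 and 101 RPKM) again lay under the control libraries (112.5 and 106 RPKM), with a log2 fold change of -0.18 (95% interval -0.33 to -0.03, adjusted p = 1 from limma).

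Stat6 was the only gene of the 9 with a positive value in unstimulated cells, where both Cd libraries (75.5 and 73.8 RPKM) lay above the control libraries (66.1 and 68.5 RPKM). Its log2 fold change was 0.15 (95% interval 0.04 to 0.26, adjusted p = 0.225 from limma), and in stimulated cells it was 0.03 (95% interval -0.07 to 0.14) with overlapping libraries. Socs3 had a value of -0.36 in unstimulated cells (95% interval -0.72 to 0.01, adjusted p = 0.373 from limma), which was -0.15 without the Cd unstimulated replicate 7 and -0.56 without the Cd unstimulated replicate 6. Socs1 was at -0.28 (95% interval -0.87 to 0.30), and at 0.10 without the Cd unstimulated replicate 7. Stat5b was at -0.10 (95% interval -0.21 to 0.01) with both Cd libraries under the control libraries.

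The values of the other genes in unstimulated cells were near 0 for Stat3 (-0.0029, 95% interval -0.18 to 0.18), Stat4 (-0.03, -0.20 to 0.15) and Stat5a (-0.0067, -0.15 to 0.13). For Socs2 the interval was wide, -1.30 to 0.97 about a value of -0.16. In stimulated cells the intervals were -0.27 to 0.08 for Stat3, -0.13 to 0.22 for Stat4, -0.16 to 0.12 for Stat5a and -0.15 to 0.07 for Stat5b. For the SOCS genes they were -0.71 to 0.47 for Socs1, -1.79 to 0.48 for Socs2 and -0.49 to 0.24 for Socs3. Across the 9 genes 8 values were below 0 in unstimulated and 7 in stimulated cells, beside 6095 and 6818 of the 12605 genes tested. In unstimulated cells those of Stat3, Stat4, Stat5a, Socs1 and Socs2 turned positive in some fit without 1 library. The medians of the 9 genes were -0.10 and -0.10, and the medians of all genes were 0.0065 and -0.0090. The libraries of the exposures did not overlap for 4 of the 9 in unstimulated cells (Stat5b, Stat6, Socs3 and Cish) and for 2 in stimulated cells (Stat5b and Cish), against 42.3% and 36.7% of all genes tested.

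**Figure D5:**
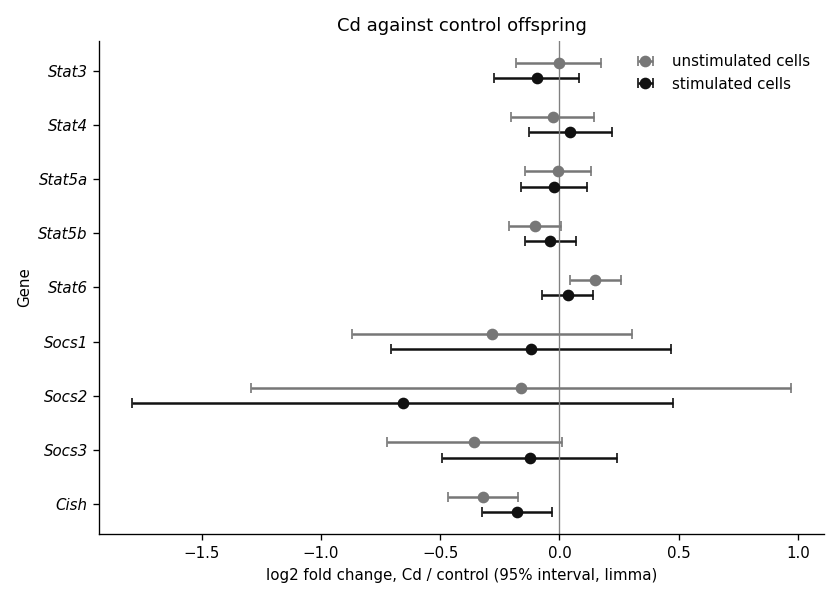
Log2 fold change of each gene between Cd and control offspring on log2(RPKM + 0.1), in unstimulated (grey) and stimulated (black) cells, with 95% intervals from limma. Most points lie slightly left of 0, the intervals of Cish stay left of 0 and that of Stat6 in unstimulated cells right of it, and none passed the adjusted p.

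Of the pathway lists, 2 genes were called between Cd and control unstimulated cells. Il2 was lower (log2 fold change -0.86, SE 0.137, adjusted p = 0.0409 from limma), on 5 and 6 reads in Cd against 12 and 8 reads in control libraries. That SE pools the spread of all 8 libraries, and the stimulated ones held 782 to 1142 Il2 reads. Fitted on only the libraries compared, the SE was 0.312 (adjusted p = 0.482 from limma), and 0.488 with limma voom (adjusted p = 0.366). Il2 lay under 0.5 RPKM in the Cd unstimulated libraries and was tested because of its stimulated libraries. The call was lost under 11 of 14 alternatives, with -0.67 without the control unstimulated replicate 6, -0.79 without the Cd unstimulated replicate 6 and -0.92 without the Cd unstimulated replicate 7. Bcl2, an inhibitor of cell death, was at 28.5 and 29.6 RPKM in Cd and 37.0 and 36.6 RPKM in control cells (log2 fold change -0.34, SE 0.055, adjusted p = 0.0432). Its call was lost under 10 of 14 alternatives, among them the fits that left out any single library of the comparison, with values between -0.37 and -0.31. No gene of the lists was called in stimulated cells.

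Whether the response to stimulation differed between Cd and control offspring was tested as a difference of the differences. None of the 9 genes passed an adjusted p under 0.05 in limma, where 0.357% of all genes tested did, and none had an unadjusted p under 0.05, where 10.6% of all genes did. With limma voom the count was also 0. The difference was 0.14 for Cish (95% interval -0.07 to 0.35), -0.02 for Stat5a (-0.21 to 0.18) and 0.23 for Socs3 (-0.29 to 0.75). The value of Socs3 was 0.029 without the Cd unstimulated replicate 7 and 0.44 without the Cd unstimulated replicate 6, and that of Cish was 0.076 without the Cd stimulated replicate 7. For Stat6 the difference was -0.12 (-0.27 to 0.03, adjusted p = 0.551), the lowest p of the 9. The intervals of Socs1 (-0.67 to 0.99) and Socs2 (-2.10 to 1.11) were the widest, and those of Stat3 (-0.34 to 0.16), Stat4 (-0.17 to 0.32) and Stat5b (-0.09 to 0.22) were narrower. No gene of the pathway lists was called.

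The genes whose levels followed the STAT and SOCS genes most closely over the 8 libraries were sought among 8624 tested genes with a mean of at least 5 RPKM. Pearson's r of log2(RPKM + 0.1) was 0.9998 between Stat5a and Fen1, a nuclease of DNA replication, and 0.9997 between Cish and Gart, an enzyme of purine synthesis. It was 0.998 between Stat4 and Cep120, 0.998 between Socs3 and Tatdn2 and 0.997 between Stat6 and Spen. These points share the stimulation state of their library, and a gene with a large stimulation difference in both exposures gives a high r with any other of the same direction. For the genes without such a difference the highest r was lower, 0.915 between Stat3 and Gbp9 and 0.908 between Stat5b and Rpl30. For Socs1 it was 0.980 with Adrm1, and for Socs2 0.958 with Nkapd1. Each of these r is the highest of a search over 8624 genes in 8 libraries, which by itself favours high values. Among the 9 genes themselves r was 0.997 between Stat5a and Cish, -0.956 between Stat5a and Socs3, -0.988 between Stat5a and Stat4, and -0.039 between Stat5a and Stat5b.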

How the data were processed

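Libraries were made with a poly(A) RNA kit (KAPA mRNA HyperPrep). Subread was used by the authors for alignment to mm10 and featureCounts for counting on transcripts of RefSeq. Tool versions, strand setting and the step from counts to values are not given in the sources used here. The deposited table holds log2 values, log2(RPKM + 1) + 0.0001 as read from the values, made by the authors for 27179 genes. These were turned back into RPKM. Whole reads were recovered from the spacing of low values for 17792 of 17794 genes above 0 in at least 2 libraries (within 0.02 of a whole read), and set the depth. Intervals on reads cover counting error only.

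Groups came from the sample labels. Genes with a mean of at least 0.5 RPKM (12605) were fitted on log2(RPKM + 0.1) with limma 3.58.1 under R 4.3.3 as means of 4 groups, with contrasts, empirical Bayes with a trend and Benjamini-Hochberg adjustment. The fit has 4 residual degrees of freedom. With 2 libraries against 2 the smallest exact two-sided permutation p is 0.333, so the spread is taken from all libraries. The fold change on this scale understates the change of low genes. The design was written for RPKM values and was run on these back-transformed RPKM. The procedure was tested on simulated data, with the same spread for all genes and changes in control stimulated libraries only. That test does not cover the comparisons of Cd with control. Replicates of a group correlated with r of 0.983 to 0.990.

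The 9 genes and the pathway lists were chosen with earlier results of these data known. Named beside the 9 are, per list and comparison, up to 3 called genes with the largest change, and for each of the 9 the gene with the highest r. Jak1 and the genes marked so above were named after their values were seen. The ratios between genes, their leave-one-out values and the alternatives for pathway genes were added after seeing the data. The alternatives took a pseudocount of 0.5 or 1, no minimum level or a mean of at least 1 RPKM, other thresholds, median-of-ratios scaling, quantile normalization, no trend, a replicate block, only the libraries compared, limma voom on recovered reads, and each library left out in turn. A fit without 1 library assumes that the lone library left in its group varies like the others. Promoter windows, positions and names came from RefSeq tables of GRCm38.p6 (25275 genes matched) and transcripts from GENCODE. Results for some single genes are not reported here. Python 3.11.15, numpy 2.4.6, pandas 2.3.3 and matplotlib 3.10.9 were used.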

Additional observations from a re-analysis of the deposited data

How the results depend on the processing

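The called genes were 3 in both stimulation comparisons and 0 in the other comparisons under each scaling, filter, pseudocount and trend setting and without each library (3 to 3, and 0 to 0). With an adjusted p under 0.05 and no fold threshold, 6 of the 9 genes passed in control and 5 in Cd offspring. With an unadjusted p under 0.05, 2 passed for Cd in unstimulated and 1 in stimulated cells. The differences between replicates 6 and 7 correlated at -0.0414 to 0.0635 between groups. With 2 libraries a group such a correlation cannot tell whether equal replicate numbers are 1 animal, so pairing stays unknown. With a replicate block on the number the counts were 3, 3, 0, 0 and 0. With a replicate block on exposure and number 4 genes were called in control offspring, Socs2 added (adjusted p = 0.00503 from limma), and 3 in Cd offspring. Over all genes the Cd count in unstimulated cells was 113, and 65 with no filter, 14 without a trend, 52 with only the libraries compared, 212 with limma voom, 19 without control unstimulated replicate 6 and 67 without replicate 7. The count for the difference in response was 45, and 28 with no filter, 4 without a trend, 113 with voom, 25 with the block on exposure and number and 2 to 63 without a library. For Cd in stimulated cells the count of 0 became 9 with no filter, 2 without a trend and 3 without control stimulated replicate 7. Quantile normalization moved the median of all genes from 0.0703 to -0.0306 in control stimulation.

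Signs turned only for values that were not called, and the cause was not tested. Under median-of-ratios scaling they were Stat3 (-0.065) in control stimulation, Stat5b (-0.017) in Cd stimulation and Stat5a (0.013) in the difference in response. Under quantile normalization they were Stat3 (-0.12) in control and Stat5b (-0.13) in Cd stimulation, and Stat3 (0.017) for Cd in unstimulated cells. Without a library, the range was -0.039 to 0.062 for Stat3 and -0.073 to 0.0024 for Stat5b in control stimulation, and -0.18 to 0.020 for Stat3 in Cd stimulation. For Cd in unstimulated cells it was -0.041 to 0.035 for Stat3, -0.094 to 0.038 for Stat4, -0.082 to 0.068 for Stat5a, -0.67 to 0.10 for Socs1 and -0.51 to 0.19 for Socs2. In stimulated cells it was -0.20 to 0.0060 for Stat3, -0.024 to 0.11 for Stat4, -0.049 to 0.0032 for Stat5a, -0.33 to 0.087 for Socs1 and -0.31 to 0.057 for Socs3. For the difference in response it was -0.19 to 0.0089 for Stat3, -0.091 to 0.059 for Stat5a, -0.22 to 0.55 for Socs1 and -1.02 to 0.033 for Socs2. Socs2, with a mean of 0.985 RPKM, was not fitted at a minimum of 1 RPKM.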
